A study of Homo sapiens with 4 samples.

Results

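The 10 genes FOS, FOSB, FOSL1, FOSL2, JUN, JUNB, JUND, ATF3, BATF3 and EGR1 encode transcription factors of the AP-1 and early growth response families. They were taken by name from the annotation of the arrays, through the accession that each probe carries, and are represented by 13 of the 58201 probes and by 10 of the 25122 genes with a symbol. ATF3 has 4 probes and the other 9 genes have 1 probe each. The arrays measured RNA of PC3 and DU145 cells, established human prostate cancer cell lines that came from a bone and a brain metastasis, on 4 one-colour (Cy3) Agilent arrays with 1 array per condition. Cells with an shRNA against ESS2 (PC3-shESS2 and DU145-shESS2) were set against cells of the same line with a luciferase shRNA (PC3-shC and DU145-shC), to ask how depletion of ESS2, a nuclear protein linked to pre-mRNA splicing and transcription, changes gene expression. All 4 cultures were grown in RPMI1640 with serum, and by their labels the control cells carried an shRNA as well. The labels describe lentiviral transduction, whereas the methods describe plasmid transfection of PC3 cells and selection with puromycin, and neither says whether a culture was a clone or a pool. With a single array for each condition, differences within a line rest on no replicates and carry no p-value.

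AP-1 is a dimer of a FOS or FOSL protein with a JUN protein, and ATF3 and BATF3 belong to the same family of basic leucine zipper proteins and can pair with JUN proteins. Many of these genes, and EGR1, are immediate-early genes. Growth factors, stress or adhesion switch them on within minutes without new protein synthesis, through MAP kinases, serum response factor and its ternary complex partners, and their mRNAs decay quickly. In epithelial tumours, FOSL1 and JUN are known for roles in invasion and inflammatory gene expression, and EGR1 has long been studied in prostate cancer.

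The letters that such inputs bind stand in some of these genes' own promoters. RefSeq promoter sequences of GRCh38.p14, 250 bases before to 50 bases after a start site, were at hand for 8 of the 10 genes, with 2 entries for ATF3. FOSL1 and BATF3 had no entry. Both strands were searched for the cyclic AMP response element TGACGTCA, the AP-1 element TGAGTCA, the JUN-type element TGACATCA, the EGR1 element GCGTGGGCG and the CArG box, which is the serum response element. The 4 stretches below, all upstream of the start site and written 5′ to 3′ on the strand of the gene, are shown because they hold the matches, which are in capitals. They lie at chr5:138465349-138465430 (plus strand) for EGR1, chr1:58784082-58784139 (minus strand) for JUN, chr1:212565259-212565316 (plus strand) for ATF3 and chr19:18281790-18281847 (minus strand) for JUND.
EGR1: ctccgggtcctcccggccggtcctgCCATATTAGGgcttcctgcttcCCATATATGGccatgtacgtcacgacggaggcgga
JUN: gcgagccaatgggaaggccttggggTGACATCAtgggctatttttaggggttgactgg
ATF3: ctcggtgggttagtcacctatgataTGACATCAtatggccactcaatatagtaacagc
JUND: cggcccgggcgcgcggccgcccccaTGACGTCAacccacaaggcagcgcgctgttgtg

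EGR1 held 2 CArG boxes, and 1.29% of 35116 RefSeq promoters of this length hold at least 1. JUN and one of the ATF3 promoters held the JUN-type element (2.61% of promoters), and JUND held the cyclic AMP response element (1.85%). The AP-1 element (4.95% of promoters) was met once, 4 bases after the start of FOSL2, and the EGR1 element (0.795%) in none of the 8 genes. No matches overlapped. These letters describe the sequence and say nothing of which factor was bound in these cells.

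Before the members, the labels were checked. ESS2 had signals of 133 and 53.6 in PC3-shC and PC3-shESS2 cells and of 85.7 and 17.3 in DU145-shC and DU145-shESS2 cells, which is 2.74-fold lower with the ESS2 shRNA in PC3 and 5.09-fold lower in DU145 after scaling, or log2 ratios of −0.90 and −1.13 with normexp background correction. In PC3 cells the signal of the α-catenin gene CTNNA1, whose product this line is known to lack, did not clear the background on either array, while it was measured on both DU145 arrays. KLK3, a marker of androgen-responsive prostate cells, was not well above background on any array, and the epithelial keratins KRT8 and KRT18 were well above it on all 4. The epithelial adhesion gene EPCAM fell from 2120 to 357 with the ESS2 shRNA in DU145, the one of 12 markers compared there that passed 2-fold, and went from 30700 to 26100 in PC3. Of the markers of other cells, CD3E was not well above background anywhere, PTPRC ranged from 27.2 to 60, and COL1A1 from 75.4 to 265. The endothelial marker PECAM1 fell from 338 to 16.4 and the monocyte marker CD14 from 221 to 54.7 between PC3-shC and PC3-shESS2 cells, and the part of such signals in the results below was not tested. On the 4 arrays, 50.8 to 52.6% of the non-control spots lay well above background, and both arrays of a line shared 1 slide and scan.

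Values below are the processed signal of a spot, from which Feature Extraction had subtracted the background, with the error that this software gives for the spot. Ratios are log2 differences after each array was divided by its 75th percentile, with an error propagated from those spot errors. That error covers the array measurement and not the spread between cultures. Spots of 1 probe printed 10 times on both arrays of a comparison gave a median SD of 0.08 for the log2 ratio between single spots. In bulk RNA, fewer cells with a transcript and less of it per cell cannot be told apart.

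FOS was far brighter in DU145 than in PC3 cells and higher with the ESS2 shRNA in both. Its signal was 29.2 ± 3.52 in PC3-shC, 57.4 ± 6.08 in PC3-shESS2, 1810 ± 181 in DU145-shC and 5260 ± 526 in DU145-shESS2 cells. The lines did not overlap, and within each line the shESS2 array was the brighter. The ratio of shESS2 over shC was 0.83 ± 0.23 in PC3, which stayed under a 2-fold difference, and 1.50 ± 0.20 in DU145, a 2.83-fold rise. With normexp background correction, which adds an offset to each signal, the PC3 ratio was 0.37.

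FOSB, the FOS relative with a similarly brief induction, was dimmest in PC3-shC cells. It was measured at 10.3 ± 2.51 in PC3-shC cells, where it did not clear the background, at 32.0 ± 3.99 in PC3-shESS2, 72.6 ± 7.59 in DU145-shC and 197 ± 19.8 in DU145-shESS2 cells. The order of the 4 arrays was the same as for FOS. Against its own dim signal in PC3-shC cells, FOSB was at least 2.82-fold higher with the ESS2 shRNA in PC3 (log2 ratio 1.49 ± 0.39), and it was 2.64-fold higher in DU145 (1.40 ± 0.21). The first fold is a bound on the scale of the processed signal and under this scaling only. Normexp correction lowered both ratios to 0.22 and 0.93, so that neither passed 2-fold.

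EGR1, a zinc finger factor induced by the same inputs, followed this order too. Its signals were 121 ± 12.3 in PC3-shC, 245 ± 24.6 in PC3-shESS2, 10200 ± 1020 in DU145-shC and 16500 ± 1650 in DU145-shESS2 cells. Both ratios of shESS2 over shC were positive and under 2-fold, 0.88 ± 0.21 in PC3, or 0.52 with normexp correction, and 0.65 ± 0.20 in DU145. Of the 16764 genes compared in PC3, 837 had a higher ratio than EGR1, and of the 16842 compared in DU145, 975 did.

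FOSL1, which encodes FRA-1, and FOSL2, which encodes FRA-2, lack the strong activation domain of FOS and showed other patterns. FOSL1 had signals of 1270 ± 127 in PC3-shC, 2510 ± 251 in PC3-shESS2, 904 ± 90.4 in DU145-shC and 675 ± 67.5 in DU145-shESS2 cells. It was higher with the ESS2 shRNA in PC3 (0.84 ± 0.20) and lower in DU145 (−0.46 ± 0.20), each within 2-fold. FOSL2 had signals of 308 ± 30.8, 192 ± 19.4, 394 ± 39.4 and 382 ± 38.2 in the same order. It was the single member with a negative ratio beyond its error in PC3 (−0.82 ± 0.21), while in DU145 its ratio of −0.08 ± 0.20 lay within its error.

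Of the JUN proteins, JUN itself changed least among the 10 genes over the 4 arrays. Its signals were 1650 ± 165 in PC3-shC, 1840 ± 184 in PC3-shESS2, 1670 ± 167 in DU145-shC and 1650 ± 165 in DU145-shESS2 cells, and its scaled levels spanned 0.33 on the log2 scale. The ratio of shESS2 over shC was 0.02 ± 0.20 in PC3 (−0.09 to 0.11 over the other ways of processing, so its sign is not settled) and −0.06 ± 0.20 in DU145.

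JUNB, which can counter JUN at some promoters, was the one member past 2-fold higher in PC3 than in DU145 control cells. It had signals of 581 ± 58.1 in PC3-shC, 675 ± 67.5 in PC3-shESS2, 203 ± 20.4 in DU145-shC and 434 ± 43.5 in DU145-shESS2 cells. Its DU145 ratio was 1.06 ± 0.20, a 2.08-fold rise that lies close to the 2-fold limit, and its PC3 ratio was 0.08 ± 0.20 (−0.03 when arrays were scaled to their medians). JUND, the JUN protein most often described as constant in resting cells, had signals of 185 ± 18.6, 250 ± 25.2, 245 ± 24.6 and 401 ± 40.2 in the same order. Its ratios were 0.29 ± 0.21 in PC3 and 0.67 ± 0.20 in DU145.

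**Figure D1:**
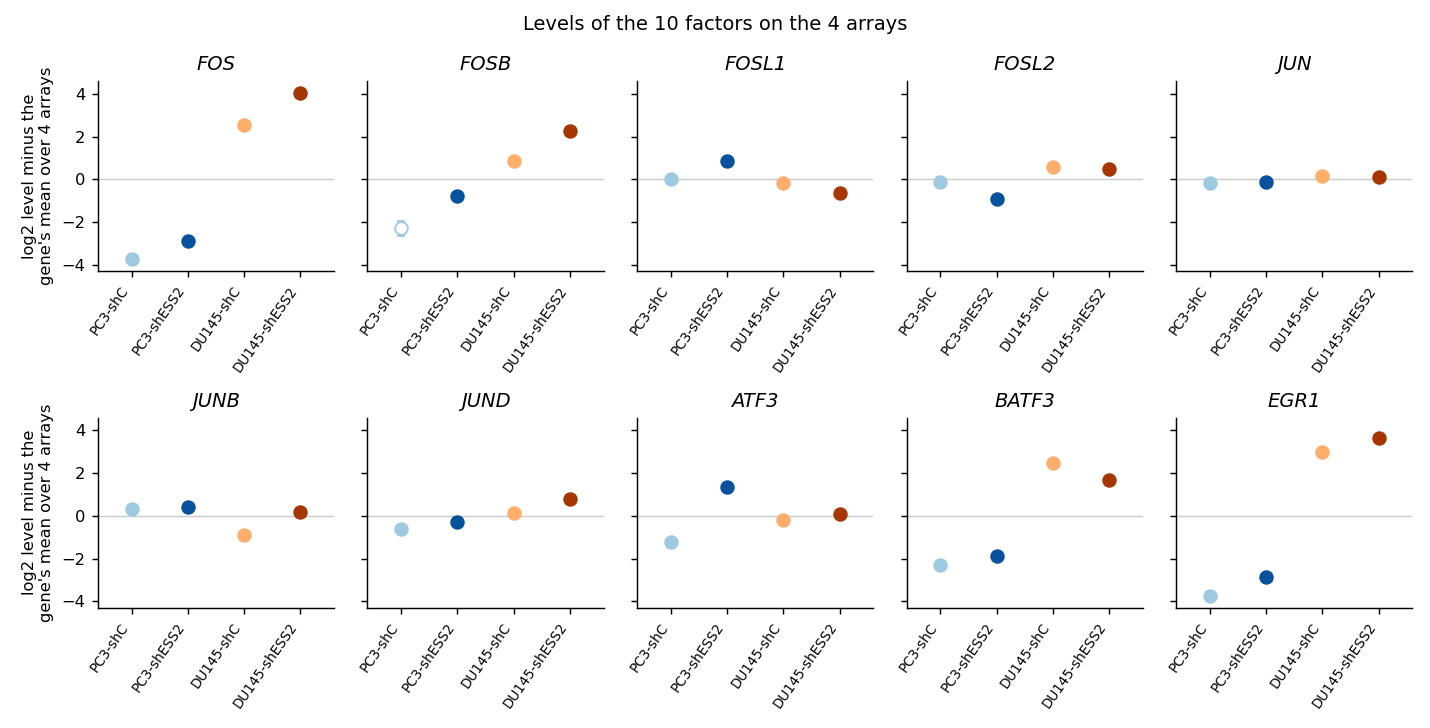
Scaled log2 level of each gene on each of the 4 arrays, minus that gene's own mean over the arrays, so that heights compare arrays within a panel and not genes. Points are single arrays, bars are the spot error of Feature Extraction, and the open point marks FOSB in PC3-shC cells, where the spot did not clear the background. FOS, FOSB, BATF3 and EGR1 show the widest gaps between the lines, ATF3 stands highest in PC3-shESS2 cells, and JUN spans 0.33.

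ATF3, a stress-induced factor that often represses its targets, had the largest measured ratio of the 10 genes in PC3, where that of FOSB is a bound. By the brightest of its 4 probes, which was used for the gene, its signal was 1880 ± 188 in PC3-shC, 12400 ± 1240 in PC3-shESS2, 3140 ± 314 in DU145-shC and 3930 ± 393 in DU145-shESS2 cells. The PC3-shESS2 array stood above the other 3. The ratio in PC3 was 2.58 ± 0.20, a 5.98-fold rise that 66 of 16764 genes exceeded, and that in DU145 was 0.28 ± 0.20.

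The other 3 probes of ATF3 did not all show a rise of this size in PC3. Probe A_24_P33895 went from 51.4 ± 5.65 to 357 ± 35.8 and probe A_33_P3214105 from 94.1 ± 9.65 to 473 ± 47.4, with log2 ratios of 2.66 ± 0.21 and 2.19 ± 0.21. Probe A_33_P3214096 went from 90.8 ± 9.38 to 123 ± 12.5, a ratio of 0.30 ± 0.21, far from the other 3 and less than 2-fold. In DU145 the 4 ratios lay between 0.17 and 0.53. Which ATF3 transcripts each probe reads was not analysed here, and the mean of the 4 probes gave 1.93 in PC3.

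**Figure D2:**
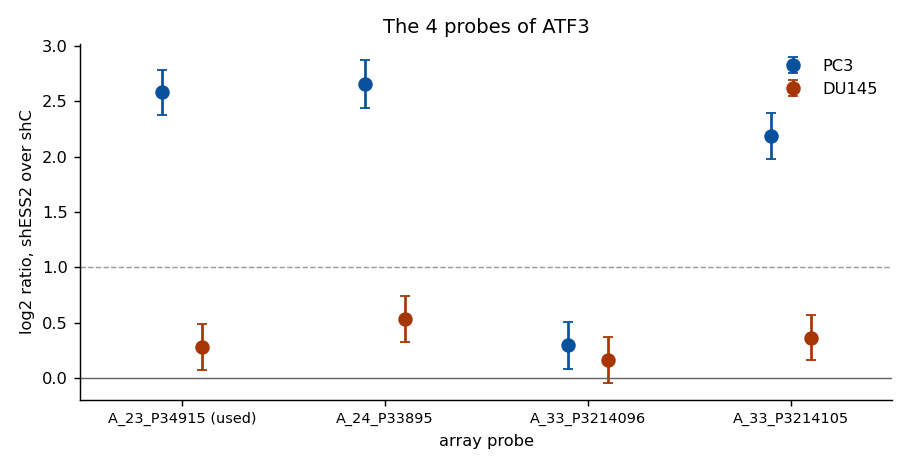
Log2 ratio of shESS2 over shC for each of the 4 probes of ATF3 in PC3 (blue) and DU145 (orange). Bars are the propagated spot error and the dashed line is a 2-fold rise. In PC3, 3 probes lie at 2.19 to 2.66 and A_33_P3214096 lies at 0.30, while in DU145 all 4 lie below 2-fold.

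BATF3, a factor best known from dendritic cells and lymphoid tumours, was dim in PC3 and bright in DU145. It had signals of 27.9 ± 3.34 in PC3-shC, 41.8 ± 4.58 in PC3-shESS2, 610 ± 61.0 in DU145-shC and 364 ± 36.4 in DU145-shESS2 cells. The lines did not overlap. Its ratio was 0.44 ± 0.23 in PC3, or 0.16 with normexp correction, and −0.79 ± 0.20 in DU145, neither past 2-fold.

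Over the whole array, knockdown of ESS2 in PC3 left 650 of 16764 genes more than 2-fold higher (3.88%) and 649 more than 2-fold lower (3.87%). These counts were 511 and 803 when each array was scaled to its median, 792 and 535 with the deposited scaled values and 248 and 323 with normexp correction. Of the 10 members, 2 passed 2-fold upward, FOSB and ATF3, and 0 downward, and with normexp correction ATF3 alone passed. FOSB was not well above background in one of the arrays compared, PC3-shC. Counted by sign alone, 9 members had a positive ratio, of which JUN and JUNB turned negative when arrays were scaled to their medians, and 1 a negative one. The median over the members was 0.64, against −0.06 for all genes compared.

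In DU145, 397 of 16842 genes were more than 2-fold higher with the ESS2 shRNA (2.36%) and 416 more than 2-fold lower (2.47%), or 139 and 77 with normexp correction. Here 3 members passed upward, FOS, FOSB and JUNB, and 0 downward. The median over the members was 0.47 against −0.02 for all genes, with 6 positive and 4 negative ratios. FOSB was the member past 2-fold in both lines, and with normexp correction it passed in neither (0.22 in PC3 and 0.93 in DU145), which left 2 members past 2-fold higher in DU145. ATF3 passed only in PC3 and FOS and JUNB only in DU145, and since each line has 1 array per condition, none of these differences between the lines was tested.

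A limma fit over the 4 arrays with cell line and shRNA as terms took the disagreement between the lines as its error, with 1 residual degree of freedom. It called 0 of 17126 genes for the shRNA at an adjusted p of 0.05 (0%), and the lowest Benjamini-Hochberg adjusted p of any gene was 0.754. At an unadjusted p under 0.05, 1028 genes passed (6.003%), among them 3 members. These were FOSB (1.45 ± 0.18, SE, unadjusted p = 0.0023), FOS (1.17 ± 0.25, 0.0137) and EGR1 (0.77 ± 0.19, 0.0200), which were higher with the ESS2 shRNA in 2 of 2 lines, each with a limma adjusted p of 0.754. FOSB, whose PC3-shC signal was not well above background, had 0.58 and a limma unadjusted p of 0.0509 with normexp correction. Without the line term none of the 3 passed, at limma unadjusted p of 0.443 for FOSB, 0.760 for FOS and 0.840 for EGR1. That fit counts the large difference between the lines as error, so it cannot test these 3 genes. ATF3, with the largest difference between its responses, had a mean of 1.43 ± 0.64 and a limma unadjusted p of 0.100.

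For FOS, FOSB, BATF3 and EGR1 the lines differed by more than the shRNAs did within a line. Between the control arrays, 3863 of 17475 genes were more than 2-fold higher in PC3 (22.1%) and 3480 more than 2-fold lower (19.9%). Scaling to the median gave 6132 and 2371, and the deposited scaled values gave 2399 and 5159, because these settings shift the median of all genes by 0.46 and −0.45. Of the 10 members, 1 was past 2-fold higher in PC3 and 5 were past 2-fold lower, with a median of −0.88 against 0.12 for all genes.

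EGR1 stood 105-fold lower in PC3-shC than in DU145-shC cells (log2 ratio −6.71 ± 0.21), and 70 genes had a lower ratio. FOS was 76.9-fold lower (−6.26 ± 0.23), with 85 genes below it, and BATF3 27.1-fold lower (−4.76 ± 0.23). With normexp correction these ratios were −5.97, −4.72 and −3.32. FOSB, set against its dim PC3-shC signal, was at least 8.74-fold lower in PC3 (−3.13 ± 0.38). This fold too is a bound on the scale of the processed signal and under this scaling only. Over the alternatives the ratio of FOSB ran from −3.58 to −1.14, the latter with normexp correction.

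The others lay closer together. ATF3 was 2.07-fold lower in PC3 (−1.05 ± 0.20), a difference that came under 2-fold with normexp correction, with averaged probes and, at −0.60, with scaling to the median. JUNB was 2.31-fold higher in PC3 (1.21 ± 0.20), or 0.76 with the deposited scaled values. JUND, at −0.72 ± 0.20, and FOSL2, at −0.67 ± 0.20, were lower in PC3 by less than 2-fold, though both passed it with the deposited scaled values, at −1.17 and −1.12. The ratios of FOSL1 (0.18 ± 0.20) and JUN (−0.33 ± 0.20) took either sign over the scalings, −0.27 to 0.63 and −0.78 to 0.13.

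The arrays of the ESS2 shRNA hold other RNA of the same lines and had the same 4 genes at the low end, with FOS below EGR1 here. PC3-shESS2 over DU145-shESS2 cells had ratios of −6.93 ± 0.21 for FOS, −6.49 ± 0.20 for EGR1, −3.53 ± 0.21 for BATF3 and −3.03 ± 0.23 for FOSB. ATF3 changed sides, from −1.05 on the control arrays to 1.25 ± 0.20 here, and FOSL1 moved from 0.18 to 1.48 ± 0.20. These line ratios and the knockdown ratios above are built from the same 4 arrays.

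For the line, the limma fit called 8597 of 17126 genes (50.2%) and 6 of the 10 members, a share of the same order as that over all genes. Called members were EGR1 (−6.60 ± 0.19, limma adjusted p = 0.0018), FOS (−6.60 ± 0.25, 0.0023), FOSB (−3.08 ± 0.18, 0.0037), BATF3 (−4.15 ± 0.37, 0.0070), JUND (−0.90 ± 0.20, 0.0361) and FOSL2 (−1.04 ± 0.27, 0.0471), all lower in PC3 with both shRNAs. JUND and FOSL2 lost their limma calls with scaling to the median, at adjusted p of 0.140 and 0.137, the highest of their alternatives, and without the shRNA term, at 0.0596 and 0.0523. As each line was on a slide of its own, line and slide cannot be told apart.

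Patterns over the 4 arrays were compared by the distance between centred log2 levels, for the 2 members with the largest range, FOS (7.76) and EGR1 (7.36), among 14685 genes well above background on every array. The gene nearest to FOS was EGR1 and the reverse also held, at a distance of 0.60. Next to both came CYBRD1, a ferric reductase, at 0.75 from FOS and 0.64 from EGR1, with signals of 19.8, 35.9, 955 and 1820 in PC3-shC, PC3-shESS2, DU145-shC and DU145-shESS2 cells. The third were CAVIN3, a protein of caveolae, for FOS (0.92) and the filamin-binding RFLNB for EGR1 (0.66). CAVIN3 had signals of 16.3, 18.7, 1430 and 3020 and RFLNB of 35.2, 52.0, 3160 and 2920. That all 3 neighbours were brighter in DU145 follows from how they were chosen.

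Other immediate-early genes were taken as a list of 30 that holds the NR4A receptors, KLF factors and feedback inhibitors. In DU145, 5 were more than 2-fold higher with the ESS2 shRNA and 0 lower, against 2.36% and 2.47% of all genes, with a median of 0.32. The orphan receptor NR4A3 went from 438 to 1910 (4.24-fold higher), EGR2 from 94.6 to 356 (3.66-fold), NR4A2 from 211 to 675 (3.11-fold) and NR4A1 from 28.6 to 88.5 (3.01-fold, or a log2 ratio of 0.77 and no call with normexp correction). ZFP36, which destabilises AU-rich mRNAs and was named after its value was seen, made the fifth at 2.19-fold.

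In PC3, 27 of that list could be compared, of which 2 were more than 2-fold higher and 2 lower, with a median of 0.27, against 3.88%, 3.87% and −0.06 for all genes. KLF6, a zinc finger factor, rose from 1280 to 4940 (3.50-fold by its brighter probe and 2.19-fold by the mean of its probes). NR4A3 was named in PC3 after its value was seen, and was at least 2.65-fold higher there by its brighter probe, going from 7.88, not well above background, to 26.1, while the mean of its probes gave −0.36 on the log2 scale and normexp correction 0.14. NFKBIZ, a regulator of NF-κB, went from 328 to 118 (log2 ratio −1.62) and the kinase SGK1 from 1990 to 1070 (−1.04, under 2-fold in 3 alternatives, at −0.92 with quantile normalization).

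Between the lines, 13 of these 30 genes were more than 2-fold lower in PC3 on the control arrays and 7 higher, against 19.9% and 22.1% of all genes, with a median of −0.81 against 0.12. CCN2, a matricellular protein and a target of serum response factor and YAP, had signals of 887 in DU145-shC and 64.0 in PC3-shC cells (log2 ratio −4.10, or −3.14 with normexp correction). NR4A2 (−3.57, or −2.13), ZFP36 (−3.28) and the MAP kinase phosphatase DUSP1 (−2.55) were lower as well. KLF10 was 10.1-fold and TRIB1, which scaffolds a ubiquitin ligase, 8.03-fold higher in PC3.

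Of 24 other AP-1 and bZIP factors, 1 was more than 2-fold higher and 1 lower with the knockdown in each line, out of 23 compared in PC3 and 22 in DU145, against 3.88% and 3.87% of all genes in PC3 and 2.36% and 2.47% in DU145. BATF was 2.62-fold higher in PC3-shESS2 cells (15.9 to 45.9), or 1.21-fold with normexp correction, and BATF2 was lower (214 to 79.9, log2 ratio −1.56). In DU145, MAFK was 2.14-fold higher (1660 to 3650) and CREB5 lower (70.4 to 34.8, −1.06, or −0.47 with normexp correction). At baseline 6 of 23 compared were more than 2-fold higher in PC3 and 2 lower, against 22.1% and 19.9% of all genes. JDP2, a repressor that pairs with JUN, had signals of 3095 in DU145-shC and 439 in PC3-shC cells (−3.13). ATF5 was 7.22-fold (4.68-fold with normexp correction) and CREM 5.18-fold higher in PC3.

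The inputs and coregulators were kinases, ternary complex factors and ubiquitin ligase parts. Of these 24, all compared, 1 was more than 2-fold higher with the knockdown in PC3 and 0 in DU145, and 0 were lower in either. At the knockdown shares over all genes given above, a list of this size allows no reading of such counts. The 1 higher in PC3 was ELK3, a partner of serum response factor. It went from 82.1 to 194 (2.14-fold, or 1.70-fold with normexp correction and 1.995-fold with scaling to the median). At baseline 2 of the 24 were more than 2-fold higher in PC3 and 5 lower, against 22.1% and 19.9% of all genes. COP1, whose ubiquitin ligase removes JUN, had signals of 684 in DU145-shC and 96.0 in PC3-shC cells (log2 ratio −3.14). MAPK8, which encodes JNK1, was lower in PC3 (−1.91, or −1.12 with normexp correction), and FBXW7 was 3.62-fold higher in PC3.

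Genes known as AP-1 targets moved both ways. In PC3, 28 of 33 could be compared, and 7 were more than 2-fold higher and 6 lower, with a median of 0.17, against 3.88% and 3.87% of all genes and a median of −0.06. The basal keratin gene KRT14 went from 128 to 3980 (28.2-fold), KRT17 from 134 to 4030 (27.3-fold), the cornified envelope gene SPRR2A from 45.0 to 475 (9.57-fold) and SPRR1B from 11.8 to 80.4 (6.18-fold), with normexp correction giving 5.20-fold for SPRR2A and 1.79-fold for SPRR1B. Of the same kind of genes, SPRR1A had signals of 684 and 755 (log2 ratio 0.00149), TGM1 a ratio of 0.78, and IVL and LORICRIN did not clear the background. IL6, like these 4 named after its value was seen, went from 3600 to 24400 (6.15-fold), level with SPRR1B. By RT-qPCR, in contrast, the paper reports IL6 as unchanged in PC3-shESS2 cells. The rise on the arrays rests on a single array per condition, and why the assays differ was not tested. Among the falls were the cytokine gene CSF2 (171 to 30.0, log2 ratio −2.65, or −1.52 with normexp correction), the cyclooxygenase gene PTGS2 (3150 to 733, −2.24), the metalloproteinase gene MMP10 (−1.19, or −0.48) and VEGFA (−1.12, or −0.97 with averaged probes).

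In DU145, 23 of the AP-1 targets could be compared, with 2 higher, 4 lower and a median of 0.06, against 2.36% and 2.47% of all genes and a median of −0.02. IL6 went from 336 to 1930 (5.59-fold higher). CXCL8 went from 1900 to 435 (−2.17) and the collagenase gene MMP1 from 6703 to 2887 (−1.26). The falls also held CSF2 (106 to 4.2) and TNF (34.6 to 3.98), which did not clear the background in DU145-shESS2 cells. Both were among the falls in PC3 as well. PTGS2, lower in PC3, was higher in DU145, from 1.9, not well above background, to 21.9. CSF2, TNF and PTGS2 were named here after their values were seen. At baseline 14 of 28 AP-1 targets were more than 2-fold higher in PC3 and 4 lower, with a median of 1.01, against 22.1% and 19.9% of all genes and a median of 0.12, and the split of higher and lower genes between the lines depends on the scaling as given above. The gap junction gene GJA1 was 162-fold higher in PC3 and EREG and MMP1 lower (−6.38 and −5.93), or 30.9-fold, −3.75 and −5.33 with normexp correction.

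Of 17 EGR1 targets, 14 could be compared in PC3, with 4 higher and 4 lower and a median of 0.34, against 3.88% and 3.87% of all genes and a median of −0.06. The tissue factor gene F3 rose from 940 to 4380 (4.23-fold), GADD45A from 1190 to 3070 (2.34-fold) and PDGFA from 258 to 574 (2.02-fold, and under 2-fold in 4 alternatives, at 1.73-fold the least), while IGF2 (−2.83), PTGES (−2.15), PDGFB (−2.10) and TNFSF10 (−1.71) were lower. In DU145, 1 of 15 was more than 2-fold higher and 0 were lower, with a median of −0.08, against 2.36% and 2.47% of all genes and a median of −0.02. That one was PTGES, a prostaglandin synthase gene, which went from 75.7 to 261 (3.35-fold) and thus moved in the opposite direction to PC3, a difference that was not tested. Of the 16 compared between the control arrays, 5 were more than 2-fold higher in PC3 and 3 lower, with a median of 0.38. All genes gave 22.1%, 19.9% and a median of 0.12, and the split depends on the scaling as given above.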

How the data were processed

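RNA of 4 cultures (0.1 µg each, per the labels) was measured on 1 Agilent array each. The authors deposited the scanner output of Feature Extraction (12.1.0.3 for PC3, 12.0.3.1 for DU145), which holds the background-subtracted intensity of every spot, unscaled between arrays, and a table of scaled intensity, which equals that signal times 1 constant per array. The array design names GRCh37.

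Log2 intensity minus the 75th percentile of the non-control spots was used. Outlier spots were dropped, spots of a probe averaged and the brightest probe taken for a gene. Accessions matched 35080 probes to symbols. A gene entered a comparison if 1 or both arrays of the pair showed it well above background, with a dim value raised to the lowest signal well above background where it lay under it. A fold against a dim value, raised or not, is written as at least that size. A difference past 2-fold was counted as called. limma 3.58.1 (R 4.3.3) was fitted to the unraised values of genes that 2 or more arrays showed well above background. Scripts ran in Python 3.11.15 with numpy 2.4.6, pandas 2.3.3, scipy 1.17.1 and matplotlib 3.10.9, and were tested on simulated data.

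The members and gene lists were chosen with earlier results of these data known. Beside the members, the text names ESS2, markers, the 3 genes nearest in pattern to the 2 members of largest range, and up to 4 rises and 4 falls per list past 2-fold, among genes measured on both arrays whose probes all moved one way. Alternatives were quantile normalization, scaling to the median, normexp (offset 50, on median spot signals), the deposited scaled values, 3 ways to treat dim spots, averaged probes, outlier spots kept and, for limma, the other factor left out. Some marker genes are not reported here.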

Additional observations from a re-analysis of the deposited data

Results flagged for a closer look

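FOSL1 and BATF3 moved in opposite directions in the cell lines, each within 2-fold. FOSL1 had a log2 ratio of shESS2 over shC of 0.84 in PC3 and −0.46 in DU145, a difference (PC3 minus DU145) of 1.30. BATF3 had 0.44 in PC3 and −0.79 in DU145, a difference of 1.23. With 1 array per condition, the difference was not tested, and line and slide cannot be told apart.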

How the results depend on the processing

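The limma fit has the cell line as a term, which pairs the arrays of a line, and no replicate could be left out because each condition has 1 array. Of 268 member ratios between pairs of arrays recomputed under up to 9 alternatives, 64 moved beyond the spread between spots and 5 took the other sign. In the limma fits, JUN (shRNA and line) and ATF3 (line) took either sign. The number of members past 2-fold higher in PC3-shESS2 cells fell from 2 to 1 with normexp background correction and with the filter on both arrays, which leaves out FOSB. The number higher in PC3 than in DU145 went from 1 to 0 with the deposited scaled values, and the number lower, 5, ranged from 4 to 7. In DU145, 3 members past 2-fold higher became 2 with normexp. NR4A3 in PC3 went from 1.40 to −0.36 when its probes were averaged. Over all genes, normexp gave 248 higher and 323 lower against 650 and 649 in PC3, 139 and 77 against 397 and 416 in DU145, and 2021 lower against 3480 between the lines. The filter on both arrays gave 271 lower in DU145. Between the lines, 6132 higher and 2371 lower (scaled to the median) and 2399 and 5159 (deposited scaled values) stood against 3863 and 3480. limma called 0 genes for the shRNA under every alternative, and 4 to 7 members for the line. Dim signals, those of FOS, FOSB and BATF3 in PC3 above all, limit these ratios.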
